A study of Xenopus laevis with 6 samples.

Results

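The insulin-like growth factor (IGF) system was examined gene by gene in basal Xenobots and in age-matched Xenopus laevis embryos. Its members were the rows of the deposited count table whose symbols name an IGF ligand, an IGF or insulin receptor, an IGF binding protein or an insulin receptor substrate. The rule found 20 of 42638 genes, under 13 symbols. It used no measured value, but was chosen with earlier results of these data known. Of these, 19 passed the expression filter (CPM, the count scaled to a common library size, above 0.6 in at least 3 libraries), as did 26752 genes in all.

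A basal Xenobot is a motile, ciliated construct that forms without sculpting from wild-type ectoderm (an animal cap) explanted at stage 9. The series held 3 Xenobot libraries, each from 50 wild-type Xenobots pooled at day 7 and raised at 14 °C in 0.75X MMR, a salt solution. It also held 3 embryo libraries, each from 10 pooled wild-type stage 35 embryos raised at 14 °C in 0.1X MMR. No further treatment was given, medium and group changed together, and a Xenobot derives from ectoderm alone where the embryo holds all germ layers. In whole embryos the study compared these media separately and reports very little change of transcripts. Xenobots raised in 0.1X MMR were not part of the series. The replicate was the pool (n = 3 per group), and p-values measure the spread between these pools. The methods of the study describe replicates in general as coming from separate batches, while the labels name no clutch or batch for any pool.

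Library totals were 13597538 to 20325075 counts in Xenobots and 17533207 to 22225123 in embryos. Ribosomal RNA took 26.4 to 36.9% of the counts in Xenobots and 27.1 to 40.7% in embryos. Most marker lists went in the direction of the tissue labels, though not to the same degree. Of 13 tested epidermal marker genes 9 were called higher in Xenobots (median log2 fold change 2.27), as were 6 of 8 for multiciliated cells, with 1 lower. All 15 tested liver marker genes (median -11.24) and all 11 muscle marker genes (median -6.38) were called lower. In RNA from whole pools, fewer cells of a type and less RNA per cell cannot be told apart. The same holds for more cells and more RNA per cell. Summed epidermal markers stood at 681.9, 653.8 and 587.2% of the embryo mean in Xenobot pools 1, 2 and 3. The study calls ectoderm a small part of the embryo and expects its transcripts to be enriched in Xenobots by proportion. The part of this enrichment in the higher IGF system values was not tested.

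IGFs are secreted peptides that bind the IGF1 receptor, a tyrosine kinase related to the insulin receptor. The active receptor phosphorylates insulin receptor substrates, which carry the signal to the PI3K-AKT-mTOR and Ras-MAPK cascades. Binding proteins hold IGFs in the extracellular space and are cut by secreted proteases, which frees the ligand. In Xenopus embryos, IGF signalling is known for promoting head and neural development, and in vertebrates at large for driving growth.

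The system was divided in Xenobots. The ligand gene igf3.L and the binding protein gene igfbp2.S were called higher, while both copies of igf2, igfbp1 and igfbp4 were called lower. No receptor or receptor substrate gene was called. A gene was called where the Benjamini-Hochberg adjusted p of limma-voom was under 0.05 and the log2 fold change, Xenobot over embryo, was above 2 or below -2. Of the 19 tested members, 2 (10.5%) were called higher and 6 (31.6%) lower, against 5.75% and 20.5% of all tested genes. By adjusted p alone, 9 were higher and 8 lower, against 29.6% and 36.2% of all tested genes. The pools of the groups did not overlap for 18 of the 19 (94.7%), against 71.7% of all tested genes. The median log2 fold change was 0.11 over the tested members and -0.07 over all tested genes.

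**Figure D1:**
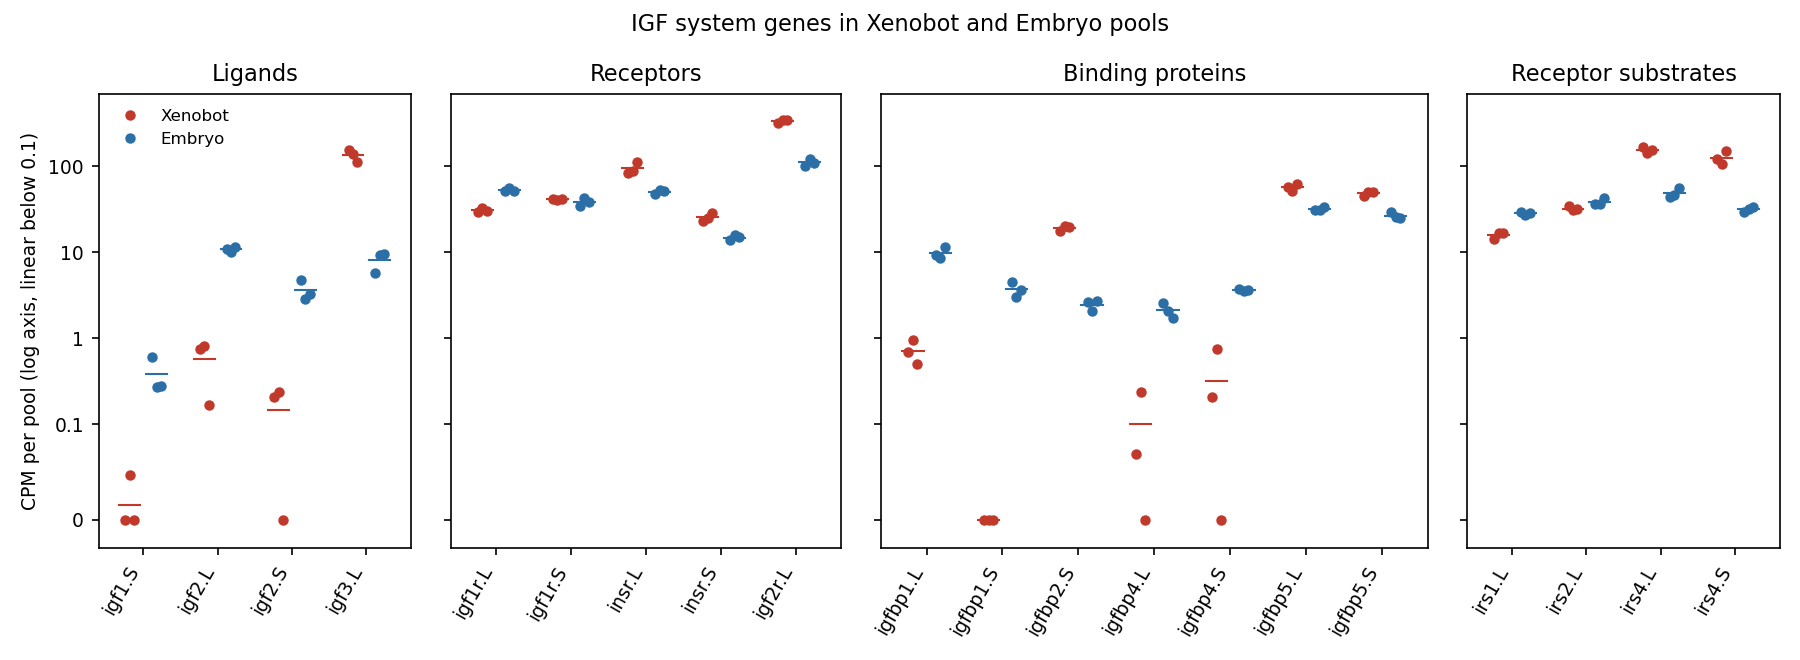
Level of each of the 20 IGF system genes in CPM (vertical axis, logarithmic above 0.1) in the 3 Xenobot pools (red, left) and the 3 embryo pools (blue, right), with pools 1 to 3 side by side and a line at the mean. The igf3.L points lie at 111.8 CPM or more in Xenobots and at 9.489 CPM or less in embryos, while igf2, igfbp1 and igfbp4 lie below 1 CPM in every Xenobot pool.

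Among the ligands, igf3.L (NCBI assembly version 10.1, chromosome 7L, 116674207 to 116683959) rose and igf2 fell. The gene igf3.L is a further IGF ligand gene annotated in this frog, and it stood at 153.8, 137.5 and 111.8 CPM in Xenobot pools 1, 2 and 3, against 5.658, 9.136 and 9.489 CPM in embryo pools 1, 2 and 3. Every Xenobot pool thus lay far above every embryo pool, and the mean was 16.6 times that of embryos (134 ± 21.1 against 8.09 ± 2.12 CPM, SD, n = 3 each). The log2 fold change was 4.08 (standard error 0.20, adjusted p = 4.57e-07 by limma). Among all tested genes, 99.7% had a smaller log2 fold change than igf3.L.

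The gene igf2 encodes the ligand that drives fetal growth in mammals. Its copy igf2.L (chromosome 4L, 16480155 to 16518326) stood at 0.756, 0.799 and 0.168 CPM in Xenobot pools 1, 2 and 3, against 10.74, 9.945 and 11.59 CPM in the embryo pools. The copy igf2.S (chromosome 4S, 7555210 to 7594180) stood at 0.206, 0.235 and 0 CPM in Xenobots, against 4.785, 2.822 and 3.29 CPM in embryos. Neither copy overlapped between groups. The log2 fold change was -4.31 for igf2.L (standard error 0.42, adjusted p = 1.22e-05 by limma) and -4.70 for igf2.S (standard error 0.63, adjusted p = 0.000102 by limma). The 2 copies are homeologs, gene copies on the L and S subgenomes of this allotetraploid frog. The Xenobot values rest on 11, 17 and 2 counts for igf2.L and 3, 5 and 0 counts for igf2.S, and igf2.S stood at -3.85 without Xenobot pool 3.

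The gene igf1 encodes the ligand that growth hormone induces in the mammalian liver. Its row igf1.S, which the annotation places on chromosome 3L (56509233 to 56565899), was too low to be tested. It had 0, 1 and 0 counts in Xenobots and 13, 5 and 6 counts in embryos. The ratio of the summed counts, Xenobot over embryo and scaled by library size, was 0.0536, with a 95% interval of 0.00130 to 0.328 (Clopper-Pearson). This interval covers counting error only.

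Among the receptors, the largest difference was in igf2r.L (chromosome 5L, 44242985 to 44333426), which encodes the cation-independent mannose 6-phosphate receptor. This receptor carries lysosomal enzymes and in mammals also clears IGF2, which the Xenopus receptor is known not to bind. It stood at 319.2, 348.4 and 347.7 CPM in Xenobots, against 101.3, 121.1 and 109.2 CPM in embryos. All Xenobot pools were above all embryo pools, with a mean ratio of 3.06 and a log2 fold change of 1.62 (standard error 0.10, adjusted p = 1.21e-06 by limma).

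Both copies of the insulin receptor gene were moderately higher. The copy insr.L (chromosome 1L, 121529031 to 121595077) stood at 83.92, 87.61 and 110.7 CPM in Xenobots, against 47.83, 52.18 and 51.35 CPM in embryos. The copy insr.S (chromosome 1S, 101787603 to 101846601) stood at 23.3, 25.23 and 28.7 CPM in Xenobots, against 13.75, 15.61 and 14.88 CPM in embryos. In neither case did the groups overlap. The log2 fold changes were 0.89 for insr.L (standard error 0.12, adjusted p = 0.000115 by limma) and 0.80 for insr.S (standard error 0.12, adjusted p = 0.0002 by limma).

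The copies of the IGF1 receptor gene, which encodes the main signalling receptor for IGFs, parted. The copy igf1r.L (chromosome 3L, 121115657 to 121282498) stood at 29.6, 32.7 and 30.23 CPM in Xenobots, against 52.05, 55.57 and 51.02 CPM in embryos. It was lower in all 3 Xenobot pools, with a log2 fold change of -0.77 (standard error 0.10, adjusted p = 6.65e-05 by limma). The copy igf1r.S (chromosome 3S, 39279295 to 39439184) stood at 41.75, 40.39 and 41.37 CPM in Xenobots, against 34.03, 42.62 and 38.15 CPM in embryos. These groups overlapped, and the log2 fold change of igf1r.S was 0.11 with a 95% interval of -0.13 to 0.36 (limma adjusted p = 0.386). With both copies summed, the receptor was lower in Xenobots by 0.35 on the log2 scale (log2 fold change -0.35, standard error 0.09, adjusted p = 0.00661 by limma).

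**Figure D2:**
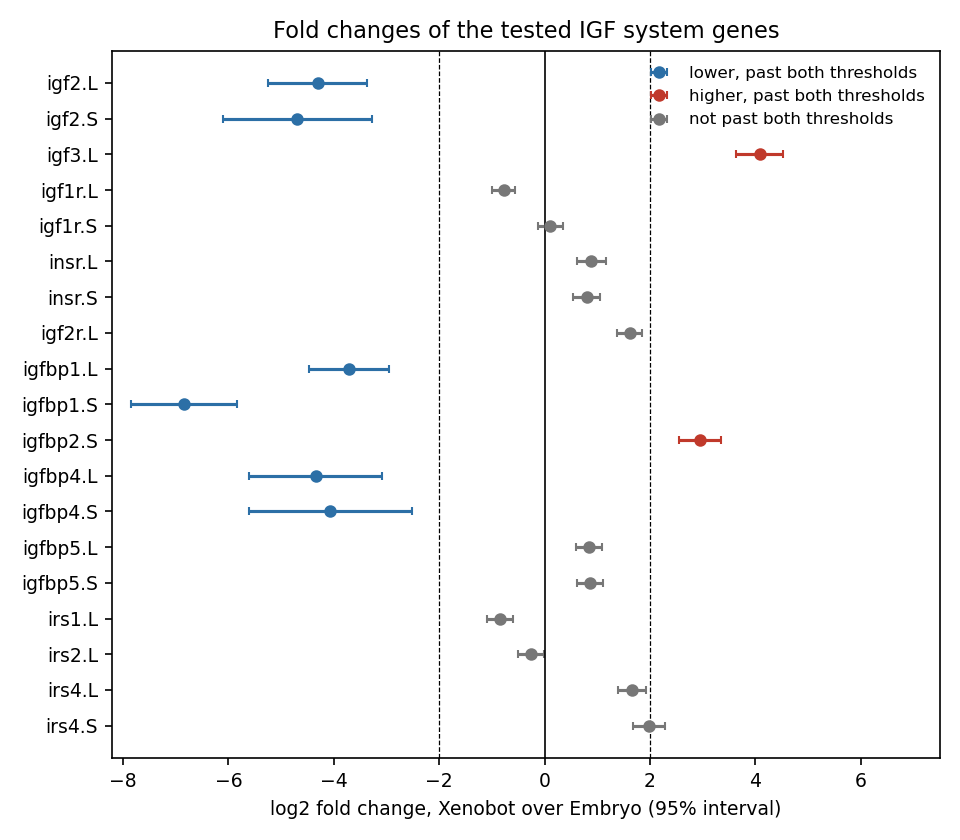
Log2 fold change, Xenobot over embryo, of the 19 tested IGF system genes (points) with its 95% interval from limma-voom (bars), with dashed lines at -2 and 2. Only igf3.L and igfbp2.S lie beyond 2 and are called, igf2, igfbp1 and igfbp4 lie beyond -2, and receptors and substrates lie between the lines. The point of igfbp1.S, at 0 counts in every Xenobot pool, depends on the count offset of voom and is no bound.

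The binding proteins went in both directions. The gene igfbp1, whose product the mammalian liver secretes under repression by insulin, was at or near the count floor in Xenobots. The copy igfbp1.L (chromosome 6L, 62626569 to 62632673) stood at 0.687, 0.940 and 0.504 CPM in Xenobots, against 9.351, 8.548 and 11.35 CPM in embryos, a log2 fold change of -3.71 (standard error 0.33, adjusted p = 7.37e-06 by limma). The copy igfbp1.S (chromosome 6S, 53048545 to 53055451) had no count in any Xenobot pool and 97, 55 and 78 counts in embryo pools 1, 2 and 3. It stood at 3.71 ± 0.783 CPM in embryos (SD, n = 3), so the Xenobot level lay at least 18.6-fold lower, computed against 3 counts per library (limma adjusted p = 1.33e-06).

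The gene igfbp4, which encodes mostly an inhibitor that holds IGFs away from the receptor, was likewise lower. The copy igfbp4.L (chromosome 9_10L, 1521170 to 1540166) stood at 0.0687, 0.235 and 0 CPM in Xenobots, against 2.525, 2.074 and 1.721 CPM in embryos. The copy igfbp4.S (chromosome 9_10S, 1356960 to 1375282) stood at 0.206, 0.752 and 0 CPM in Xenobots, against 3.694, 3.553 and 3.582 CPM in embryos. Xenobot pool 2 was the highest Xenobot pool for both, and still below every embryo pool. The log2 fold changes were -4.34 for igfbp4.L (standard error 0.56, adjusted p = 8e-05 by limma) and -4.06 for igfbp4.S (standard error 0.69, adjusted p = 0.000498 by limma). Single pools moved both sizes. Without Xenobot pool 3 they were -3.64 for igfbp4.L and -2.99 for igfbp4.S, and without Xenobot pool 2 they were -5.00 and -5.18, all called lower.

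The gene igfbp2.S (chromosome 9_10S, 51327516 to 51355068) encodes a binding protein that in mammals prefers IGF2. It stood at 17.73, 19.87 and 19.64 CPM in Xenobots, against 2.618, 2.056 and 2.698 CPM in embryos. The groups lay well apart, with a mean ratio of 7.77 and a log2 fold change of 2.94 (standard error 0.18, adjusted p = 8.76e-07 by limma).

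Its neighbour on the chromosome is igfbp5.S (51365787 to 51386276), 10718 bases away with 0 annotated genes between them. Binding protein igfbp5 attaches to extracellular matrix, and in zebrafish a copy of it is made by epidermal ionocytes. The copy igfbp5.S stood at 45.17, 50.7 and 49.77 CPM in Xenobots, against 29.61, 25.51 and 24.65 CPM in embryos, a log2 fold change of 0.87 (standard error 0.11, adjusted p = 6.51e-05 by limma). The copy igfbp5.L (chromosome 9_10L, 59638815 to 59655273) stood at 56.97, 51.14 and 62.8 CPM in Xenobots, against 30.56, 30.65 and 33.91 CPM in embryos, a log2 fold change of 0.84 (standard error 0.11, adjusted p = 8.49e-05 by limma). All Xenobot pools exceeded all embryo pools for both copies. Neither igfbp5 copy passed the fold threshold. Of 4 tested ionocyte marker genes, 3 were called higher (75%, against 5.75% of all tested genes). Their median log2 fold change was 2.53, beside 2.27 for epidermal and 2.81 for multiciliated cell markers. The part of these cell types in the igfbp5 differences was not tested.

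The receptor substrates, docking proteins that recruit PI3K to the receptors, differed among themselves. The gene irs4 rose in both copies. The copy irs4.L (chromosome 8L, 42322839 to 42336796) stood at 167.4, 140.9 and 153.3 CPM in Xenobots, against 44.09, 46.49 and 56.25 CPM in embryos. The copy irs4.S (chromosome 8S, 58003455 to 58016494) stood at 121.2, 106.2 and 150.5 CPM in Xenobots, against 29.04, 31.96 and 33.8 CPM in embryos. The mean ratios were 3.14 and 3.99, with log2 fold changes of 1.66 (standard error 0.12, adjusted p = 2.22e-06 by limma) for irs4.L and 1.98 (standard error 0.14, adjusted p = 1.67e-06 by limma) for irs4.S. The value of irs4.S lay just inside the fold threshold, and passed it without Xenobot pool 1 (2.01), without Xenobot pool 2 (2.10), without embryo pool 3 (2.03) and with a surrogate variable (2.03).

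The gene irs1.L (chromosome 5L, 126912325 to 126915586), the classical substrate of the insulin receptor, was lower in every Xenobot pool. It stood at 14.37, 16.77 and 16.58 CPM in Xenobots, against 29.48, 27.38 and 28.55 CPM in embryos, a log2 fold change of -0.84 (standard error 0.11, adjusted p = 8.43e-05 by limma). The gene irs2.L (chromosome 3L, 158689064 to 158711121), the substrate best known from the mammalian liver, stood at 33.95, 30.77 and 31.73 CPM in Xenobots, against 36.05, 36.36 and 42.75 CPM in embryos. Its pools did not overlap, but its log2 fold change of -0.25 (95% interval -0.50 to -0.01) did not pass the adjustment over all genes (limma adjusted p = 0.0628). Under the alternative settings the adjusted p of irs2.L ran from 0.0144 to 0.273.

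The traces of the lower genes differed between Xenobot pools. Of the 6 members called lower, 5 had any count in Xenobots, and all 5 were highest in Xenobot pool 2 and lowest in pool 3. The share of all genes with this pool order was not determined, so it cannot be read as a trait of the members. Library totals had this order too, at 15599300, 20325075 and 13597538 counts in Xenobot pools 1, 2 and 3. Ribosomal RNA took 36.2, 26.4 and 36.9% of them. The part of depth and ribosomal RNA in these values was not tested. As a share of the embryo mean, igf2.L stood at 7.03, 7.42 and 1.56% in Xenobot pools 1, 2 and 3, igfbp1.L at 7.05, 9.64 and 5.17%, and igfbp4.S at 5.71, 20.8 and 0%. Of 7 summed marker lists for other organs, 3 followed the same order. Muscle markers stood at 1.12, 2.49 and 0.32% of the embryo mean, notochord and cartilage markers at 6.66, 13.0 and 5.18%, and endothelial markers at 34.2, 42.5 and 7.87%. Liver markers stood at 0.044, 0.0765 and 0.0537%, blood markers at 0.192, 0.263 and 0.235% and neural markers at 29.3, 32.0 and 30.7%, with pool 2 highest but pool 1 lowest. Of 11 tested neural marker genes, 10 were called lower (median log2 fold change of the list -7.38). The list also held 1 gene that was higher by limma adjusted p alone (1.85), so the neural sum does not describe most of its genes. Kidney markers ran the other way, at 1.71, 1.28 and 1.67%, with pool 2 lowest. In Xenobots the kidney sum was only 0.687, 0.517 and 0.672 CPM, and the blood sum 0.550, 0.752 and 0.672 CPM. The pool order of these 2 lists therefore carries much counting error. The same holds for the 5 members, which are copies of igf2, igfbp1 and igfbp4 only. In Xenobot pools 1, 2 and 3 igf2.L had 11, 17 and 2 counts, igf2.S 3, 5 and 0, and igfbp1.L 10, 20 and 6. The copy igfbp4.L had 1, 5 and 0 counts there, and igfbp4.S 3, 16 and 0. Of the 12 notochord and cartilage marker genes found, 3 had no count in any Xenobot pool. The part of cells of these organs in the IGF values was not tested. All 6 members were also called lower without Xenobot pool 2, but leaving out the highest pool could hardly give another outcome.

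**Figure D3:**
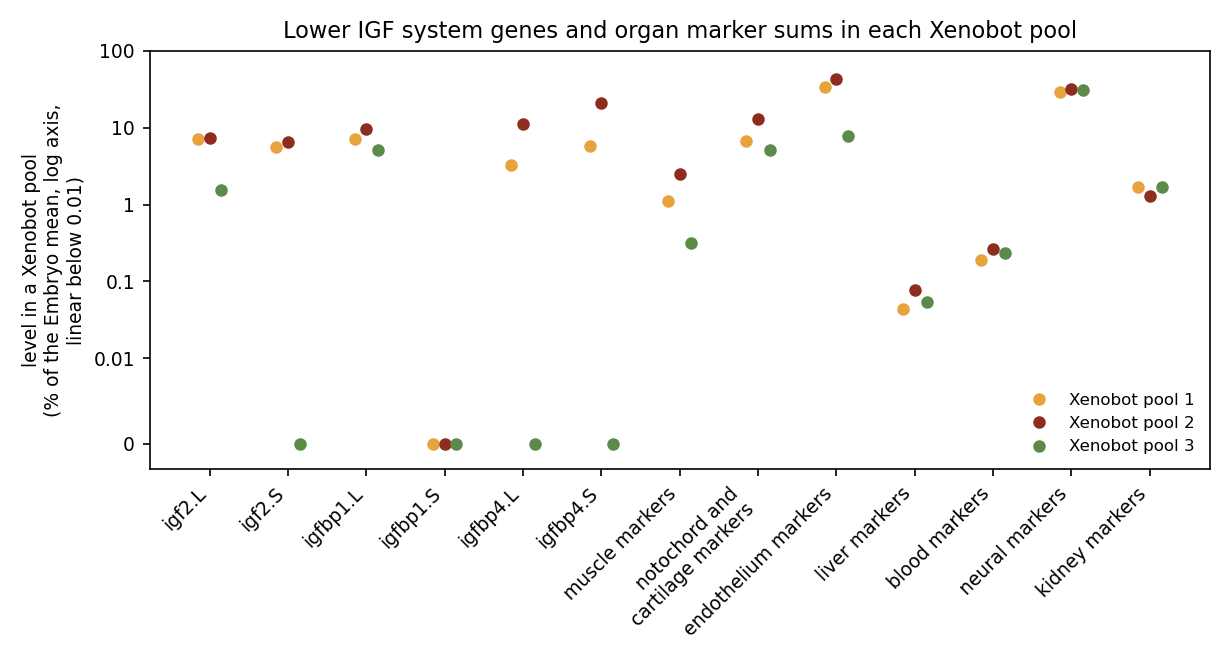
Level in each Xenobot pool (coloured points) of the 6 members called lower and of 7 summed organ marker lists, in percent of the embryo mean (vertical axis, logarithmic above 0.01). Pool 2 is the highest point for the 5 genes with any count and for 6 of the 7 lists, kidney markers have pool 2 lowest, and igfbp1.S lies at 0 in all 3 pools. The neural sum includes 1 gene that was higher in Xenobots, while 10 of its 11 tested genes were called lower.

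The next comparison asked whether the L and S copies of a gene differed in the same way between Xenobots and embryos. Both copies were tested for 7 member pairs, within 6667 homeolog pairs of the genome. In 2 of the 7 pairs the copies differed in their log2 fold change at a limma adjusted p under 0.05, against 42.7% of all pairs. For igf1r the L copy held 41.5, 44.7 and 42.2% of the counts of the pair in Xenobots and 60.5, 56.6 and 57.2% in embryos. The L-minus-S difference of log2 fold change was -0.89 (standard error 0.09, adjusted p = 0.000161 by limma), so the share of the S copy was higher in all 3 Xenobot pools.

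For igfbp1 the L copy held all 36 counts of the pair in Xenobots, and 67.3, 74.2 and 75.8% in embryos. With 3 counts taken as the limit for a count of 0, the S copy could hold up to 8.33% of these 36 in Xenobots. The fitted difference of 3.09 (standard error 0.50, adjusted p = 0.0015 by limma) depends on the prior count, and was 1.302 with a prior count of 2 (limma adjusted p = 0.0254). No such call came from the remaining pairs. The difference was 0.31 for igf2 (95% interval -0.58 to 1.20), -0.15 for igfbp4 (-1.34 to 1.04), -0.03 for igfbp5 (-0.33 to 0.27) and 0.09 for insr (-0.09 to 0.27). The pair irs4 lay near the threshold, with a difference of -0.33 (95% interval -0.60 to -0.05, limma adjusted p = 0.0568). RSEM assigns reads that match both copies to each in estimated parts, which makes a single copy less certain than the sum of the pair.

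**Figure D4:**
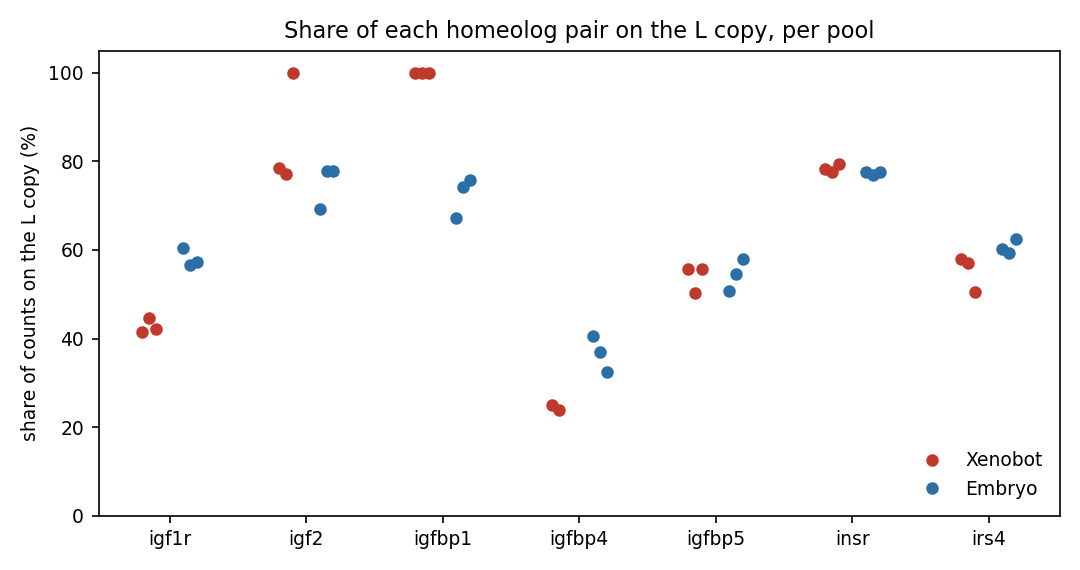
Share of the counts of each homeolog pair that fell on the L copy (vertical axis, percent), in Xenobot pools (red, left) and embryo pools (blue, right). The igf1r shares lie at 44.7% or below in Xenobots and at 56.6% or above in embryos, whereas the insr shares lie between 77.0 and 79.4% in all 6 pools. Pool 3 of Xenobots has no igfbp4 count and no point.

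Genes around the IGF system were taken from lists written with earlier results of these data known. Of 8 tested genes listed for IGF availability and the growth hormone axis, 0 were called higher and 1 lower. By limma adjusted p alone 1 was higher and 5 lower, and the median log2 fold change was -0.59. Among these 5 were igf2bp3.L (-0.66) and igf2bp3.S (-0.62), copies of a gene for a binding protein of IGF2 mRNA, not of the IGF peptide. The 12.5% called lower stood against 20.5% of all tested genes, and the 62.5% lower by adjusted p alone against 36.2%. The gene called lower was pappa2.L, whose product is a protease that cuts IGF binding proteins. It had no count in Xenobots and stood at 3.32, 1.948 and 2.322 CPM in embryos, so that it was at least 12.7-fold lower in Xenobots (limma adjusted p = 2.6e-06).

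No transcript of the insulin genes was counted in Xenobots, and the peptide was not measured. Of 6 tested genes of the remaining insulin and relaxin family, 0 were called higher and 3 lower (2 higher and 4 lower by limma adjusted p alone), against 5.75% and 20.5% of all tested genes (29.6% and 36.2% by adjusted p alone). The median log2 fold change was -3.64 as fitted, and -2.31 with genes at 0 in Xenobots set to their bound. Both insulin genes had no count in any Xenobot pool. In embryos ins.L stood at 1.356, 1.298 and 1.535 CPM and ins.S at 2.291, 2.272 and 2.186 CPM, which made them at least 6.99-fold and at least 11.3-fold lower in Xenobots. The relaxin receptor gene rxfp1.L was at least 10.6-fold lower, with no count in Xenobots and 2.12 ± 0.438 CPM in embryos (SD, n = 3). The 3 genes had limma adjusted p values of 2.71e-06, 1.15e-06 and 2.38e-06. The other copy, rxfp1.S, had 4, 10 and 2 counts in Xenobot pools 1, 2 and 3. Its log2 fold change was -1.82 (adjusted p = 0.00444 by limma), so it was not called.

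Few genes of the signalling cascades passed both thresholds, while many passed the adjusted p alone. Of 56 tested PI3K-AKT-mTOR genes, 2 were called lower (3.57%, against 20.5% of all tested genes) and 0 higher. Their median log2 fold change was 0.07. By limma adjusted p alone, 21 were higher (37.5%, against 29.6%) and 13 lower (23.2%, against 36.2%). Of 45 tested adaptors and kinases of the Ras-MAPK branch, 3 were called lower (6.67%) and 0 higher, with a median of 0.28. By limma adjusted p alone, 20 were higher (44.4%) and 7 lower (15.6%). Within 1 log2 unit of 0 lay 45 of the PI3K-AKT-mTOR genes (80.4%) and 37 of the Ras-MAPK genes (82.2%), against 56.5% of all tested genes. Named by the rule on abundance were foxo6.L, a FOXO transcription factor gene at 0.357 ± 0.0743 CPM in Xenobots and 2.04 ± 0.639 CPM in embryos, and both copies of the adaptor gene shc2 (SD, n = 3). The log2 fold changes were -2.36 for foxo6.L (standard error 0.44, adjusted p = 0.000933 by limma), -2.21 for shc2.L (standard error 0.49, adjusted p = 0.00254 by limma) and -4.15 for shc2.S (standard error 0.51, adjusted p = 5.6e-05 by limma). The other copy, foxo6.S, overlapped between groups at 1.51 ± 0.415 CPM in Xenobots and 1.96 ± 0.691 CPM in embryos (SD, n = 3), with a log2 fold change of -0.30 (adjusted p = 0.509 by limma). With homeologs summed, 0 PI3K-AKT-mTOR genes were called lower. With only genes at a mean CPM above 1 tested, 0 Ras-MAPK genes were called lower. The genes inpp5d.S (an inositol phosphatase gene) and dok5.S (a docking adaptor gene) had no count in Xenobots. Both lay below the abundance that the naming rule asks for, and were chosen after their values were seen. They were at least 4.79-fold and 4.50-fold lower than in embryos (adjusted p = 7.38e-06 and 1.24e-05 by limma). The more abundant copy inpp5d.L was present in Xenobots, at 6.87 ± 1.96 CPM against 18.6 ± 2.69 CPM in embryos (SD, n = 3). Its log2 fold change was -1.42 (adjusted p = 0.000166 by limma), so it was not called.

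Genes known in mammals as targets of FOXO factors, which AKT keeps out of the nucleus when insulin or IGF signals are present, included calls in both directions. Of 30 tested, 5 were called higher and 3 lower, against 5.75% and 20.5% of all tested genes, with a median of 0.84. By limma adjusted p alone, 18 were higher and 6 lower of 30, against 29.6% and 36.2% of all tested genes. The gluconeogenic gene pck1.S stood at 194.8, 219.7 and 143.2 CPM in Xenobots, against 5.421, 6.896 and 6.968 CPM in embryos, a log2 fold change of 4.84 (standard error 0.20, adjusted p = 3.34e-07 by limma). The L copy, pck1.L, rose by 3.23 on the same scale. The gene sesn1.S, which encodes a sestrin that restrains mTOR, stood at 88.46, 99.19 and 74.31 CPM in Xenobots, against 11.78, 12.98 and 10.44 CPM in embryos, a log2 fold change of 2.89 (standard error 0.14, adjusted p = 4.44e-07 by limma). The groups were far apart for each of these genes.

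The lower members of that list were both copies of trim63, a ubiquitin ligase gene of striated muscle, and cited2.L, a transcriptional coregulator gene. Their log2 fold changes were -3.75 for trim63.L (standard error 0.57, adjusted p = 0.000226 by limma), -5.67 for trim63.S (standard error 0.71, adjusted p = 6.49e-05 by limma) and -2.94 for cited2.L (standard error 0.37, adjusted p = 6.04e-05 by limma). Muscle markers, given above, were lower in the same pools, and their part in the trim63 values was not tested. The IGF system genes igfbp1 and irs2 are themselves FOXO targets in mammals. Here the log2 fold changes were -3.71 for igfbp1.L and -0.25 for irs2.L, and igfbp1.S was at least 18.6-fold lower. The activity of FOXO factors was not measured.

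**Figure D5:**
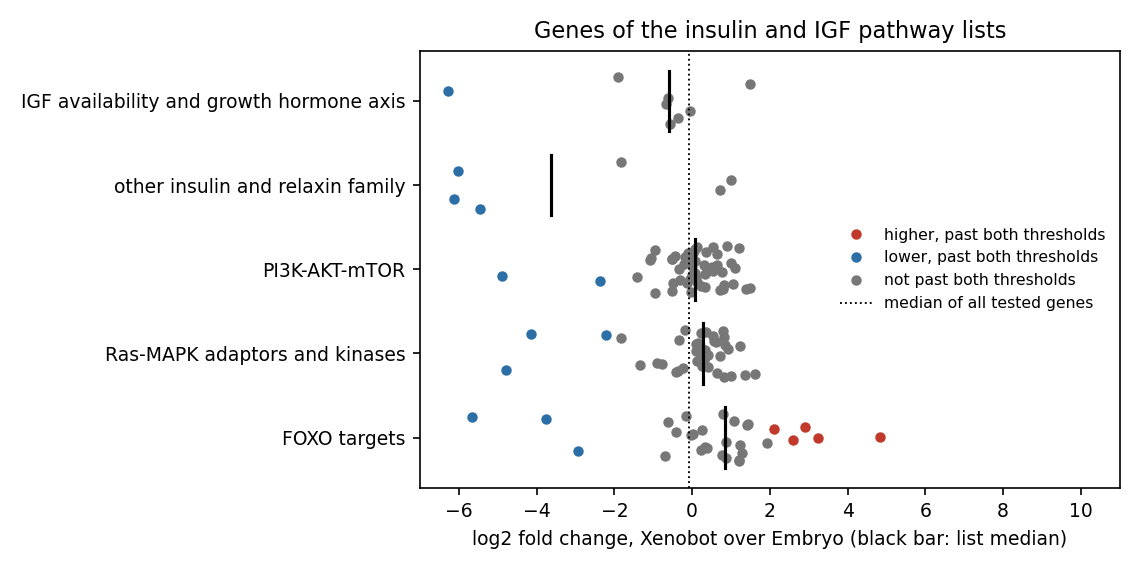
Log2 fold change, Xenobot over embryo (horizontal axis), of the tested genes of 5 pathway lists, with a black bar at each list median and a dotted line at the median of all tested genes (-0.07). The medians lie at -0.59, -3.64, 0.07, 0.28 and 0.84 from the top list to the bottom one, and red points, called higher, occur in the FOXO target list only. Fitted values of genes with no count in Xenobots are no bounds.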

How the data were processed

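RNA of 3 Xenobot and 3 embryo pools was depleted of rRNA and sequenced as stranded, single-end reads. The authors trimmed reads with fastp, used STAR for alignment to NCBI's X. laevis assembly (version 10.1) and deposited expected counts per gene estimated by RSEM. The authors also deposited log2 CPM of 28009 genes after removing the effects of surrogate variables, used here for alternatives only. Tool versions are not given in the sources used here.

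Groups came from sample titles. Genes with CPM above 0.6 in at least 3 libraries were scaled with TMM (edgeR 4.0.16), weighted by voom and fitted in limma 3.58.1 (R 4.3.3), two-sided, by group alone. Filter, scaling and test are those named in the methods of the study, where no other term of the fit is given. The same filter kept 26752 genes here, fewer than in the authors' table. Expected counts were rounded only for the quasi-likelihood test of edgeR and for DESeq2 1.42.0. CPM values use TMM-scaled library sizes. Homeologs were compared by limma with trend on the log2 ratio of L to S copy per pool (prior count 0.5), over all pairs. Of the per-sample columns, 0 were left unused.

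Members and lists were chosen with earlier results of these data known. All 20 members are named. Of each list, up to 3 called genes in each direction were named that had a mean of at least 1 CPM in a group and no overlap. Positions came from RefSeq, which matched all 20 members. That table gives no exon lengths, so levels of different genes were not compared. Scripts were tested on simulated data. Alternatives were other tests, scalings, filters, 1 surrogate variable (sva 3.50.0), a replicate block, the adjusted values, summed homeologs and each pool left out over the same genes. Floors and counts cover counting error only.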

Additional observations from a re-analysis of the deposited data

How the results depend on the processing

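Over all alternatives, 2 to 3 members were called higher and 6 to 7 lower, and 9 were higher and 8 to 10 lower by adjusted p alone. The added higher call was irs4.S and the added lower one, without a filter, igf1.S. Of 342 fold changes, 336 stayed on their side of the adjusted p with no called sign reversed. The exceptions were irs2.L, which passed in 5 alternatives, and igf1r.S, which takes the value of the pair, -0.35, with homeologs summed (and was -0.03, not passed, with total-count scaling). The irs4 pair passed with a prior count of 2 (-0.32) and without Xenobot pool 1 (-0.41). The replicate block gave 2 higher and 6 lower members and changed no call. Deviations of same-numbered pools correlated at 0.0614, 0.0897 and 0.0343, and those of differently numbered pools at -0.0816 to 0.0311. With 3 pools per group, these values cannot decide whether same-numbered pools were paired.

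Counts of called genes moved by over 1.5 times in 4 of the 5 lists, FOXO targets being the exception. IGF availability and growth hormone genes called lower numbered 2 with upper-quartile or total-count scaling, 4 without a filter or with homeologs summed, and 1 to 2 with a pool left out (2 without Xenobot pool 2 or embryo pool 2). The remaining insulin family had 1 called higher without a filter, over the genes listed in the adjusted table, and in the adjusted values, and 5 lower without a filter and 6 with homeologs summed. PI3K-AKT-mTOR genes called lower numbered 1 at a mean CPM above 1 and in the adjusted values, and 0 with homeologs summed. Ras-MAPK genes numbered 0 at a mean CPM above 1, where fewer genes were tested. Other scalings put the median of all genes at -0.11 to -0.21. Summed values of homeologs count once for each copy. The depth limits igf1.S, igf2.S and igfbp4, with 0 to 16 counts per Xenobot pool.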

Other observations

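Spread between pools was compared with that of all genes. Of the 15 members with a count in every pool, 8 (53.3%) had a larger coefficient of variation between pools in Xenobots than in embryos, against 65.4% of 24325 tested genes. The median coefficient of variation of these members was 0.0861 in Xenobots and 0.0902 in embryos, and that of all genes 0.152 and 0.11. Among these 15, the widest spread was that of igf2.L, at 0.614 in Xenobots and 0.0767 in embryos, where 2 to 17 counts per Xenobot pool carry much counting error. Of the abundant genes, igf2r.L was among the most even in Xenobots, at 0.0493, and stood at the member median of 0.0902 in embryos. The copy igf1r.S stood at 0.017 in Xenobots and 0.112 in embryos. These values were not scaled by the number of individuals per pool, which was 50 for Xenobots and 10 for embryos.

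The insulin receptor-related receptor, a relative of the insulin receptor known as a sensor of alkaline pH, was higher in Xenobots, a gene chosen here after its values were seen. Its copy insrr.L stood at 15.99, 19.61 and 13.33 CPM in Xenobots, against 9.63, 10.0 and 10.18 CPM in embryos, a log2 fold change of 0.73 (limma adjusted p = 0.00201). Its copy insrr.S stood at 8.14, 11.3 and 8.162 CPM in Xenobots, against 4.584, 4.39 and 4.895 CPM in embryos, a log2 fold change of 1.01 (limma adjusted p = 0.000734). Groups did not overlap for either copy.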
